A study of Arabidopsis thaliana with 24 samples.

Results

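Gibberellins are plant growth hormones, and the 10 genes described here make, inactivate or sense them in the leaf. They were taken by locus identifier from a table of read counts for 33610 Arabidopsis thaliana genes. GA3OX1 (AT1G15550), GA20OX1 (AT4G25420) and GA20OX2 (AT5G51810) encode oxidases of the last steps of synthesis, and GA2OX1 (AT1G78440) encodes an inactivating oxidase. GID1A (AT3G05120), GID1B (AT3G63010) and GID1C (AT5G27320) encode the receptors, and RGA (AT2G01570), GAI (AT1G14920) and RGL3 (AT5G17490) encode DELLA proteins. The table covers 2 ecotypes, Castelnuovo-12 from Italy (IT, sub-line 24) and Rodasen-47 from Sweden (SW, sub-line 29), both grown from seed in chambers and sampled while vegetative. Each was grown in 4 regimes with 9-h days, at a photon flux of 100 µmol per square metre per second in low light and 1000 in high light. In the warm regimes, LLW in low light and HLW in high light, leaves were at 25 °C by day and 20 °C by night. In the cool regimes they were at 16 °C by day in low light (LLC) and at 14 °C by day in high light (HLC), and at 12.5 °C by night in both. RNA came from 2 discs of 0.73 square cm of the youngest fully developed leaf, frozen when the 15-h night ended, so every value describes leaves in the dark. Each of the 8 groups held 3 libraries. The labels call them biological replicates without saying what kept them apart. A p-value therefore reflects only the scatter among libraries of the same group. The estimate of this scatter was shared by all 8 groups, so libraries outside a comparison also bear on its p-value.

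Active gibberellin is made stepwise, with GA 20-oxidases and then GA 3-oxidases acting last, and GA 2-oxidases remove it. The hormone binds a GID1 receptor, which then binds a DELLA protein and leads to its destruction through the F-box protein SLY1. DELLA proteins restrain growth, and they also raise transcription of GID1 and GA 20- and 3-oxidase genes, a feedback known from Arabidopsis.

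Total counts ran from 10967425 to 17467653 per library, and plastid transcripts took 54.8% to 68.0% of them. The libraries did not divide by ecotype label. RPP5, a resistance gene, stood at 81.8 to 168 CPM, the counts scaled to a common library size, in the groups labelled IT_LLC, IT_HLC, SW_LLW and SW_LLC, called set A below, and at 10.5 to 14.7 CPM in IT_LLW, IT_HLW, SW_HLW and SW_HLC, called set B. The library labelled IT_HLC replicate 3 carried transcripts of both sets: CSA1, an immune receptor gene, stood at 5.04 CPM in it, at 0.0435 to 0.0824 CPM in the other 11 libraries of set A and at 9.38 to 22.7 CPM in set B. Group names are therefore labels, not checked identities. The library codes also form a lettered series, with all LLW and HLC libraries, and a numbered series, with all LLC and HLW libraries. HLC against LLW, averaged over both labels, lies within the lettered series and has equal numbers of groups of each set on both sides.

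Of the 10 genes, 8 passed the filter on low counts. GA20OX2 was at the table's lowest value, 1, in all 24 libraries, and GA2OX1 was at that value in 22 and never above 2 counts. Neither was detectable at this depth. A count of 3 corresponds to 0.172 to 0.274 CPM on the unscaled totals. On the scaled totals used for all levels given here, a count of 1 stood at 0.0435 to 0.106 CPM. Per kilobase of exon, the mean level over all libraries was highest for RGA, at 23.2 CPM per kb. GAI followed at 7.80, GA3OX1 at 6.97, GID1C at 4.91 and GID1A at 3.91 CPM per kb. GID1B stood at 0.840, GA20OX1 at 0.524 and RGL3 at 0.340 CPM per kb, which rest on medians of 10, 7.5 and 8.5 counts per library. Counts this low leave the last-named genes with wide errors.

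**Figure D1:**
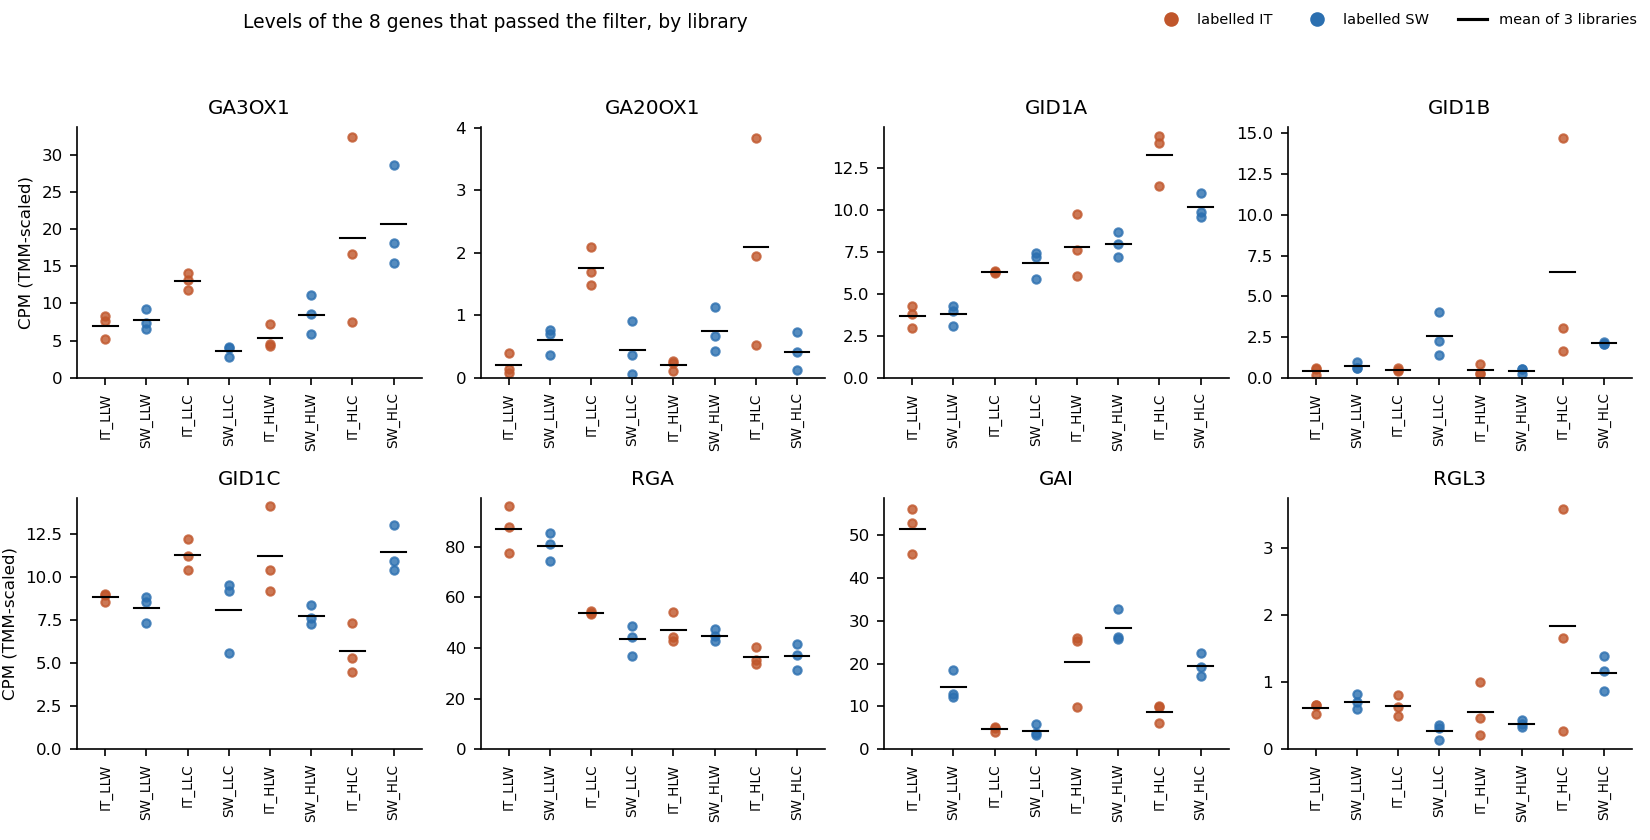
Level of each of the 8 genes that passed the filter, in CPM on a linear axis, for every library (points) with the mean of 3 libraries (line), by labelled group. RGA was highest in the LLW groups, GID1A was highest in the HLC groups, and IT_HLC replicate 2 stood at 14.7 CPM for GID1B, far above the other libraries.

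Averaged over both labels, the receptor genes GID1A and GID1B and the synthesis genes GA3OX1 and GA20OX1 were higher in HLC than in LLW. In these extreme regimes the DELLA gene RGL3 was also higher, while the DELLA genes RGA and GAI were lower. GID1A rose 3.10-fold, GID1B 6.57-fold, GA3OX1 2.68-fold, GA20OX1 2.55-fold and RGL3 2.20-fold, as the mean over both labels. RGA fell 2.29-fold and GAI 2.1-fold, and GID1C did not pass the test. Thus 5 of the 8 tested genes rose and 2 fell by edgeR's quasi-likelihood test with Benjamini-Hochberg adjustment. Of all 17709 tested genes 28.5% rose and 27.3% fell, 55.8% in all, so that most genes of the table were called as well. The median log2 change of the 8 was 1.24, beside 0.01 over all tested genes. The means hide differences between the labels. GAI changed by -2.57 in IT and 0.42 in SW, and GA20OX1 by 3.22 and -0.52, neither called in SW. GID1C fell in IT (-0.64) and rose in SW (0.48), both called. GID1B and RGL3 rose under both labels but were called in IT only. In these leaf discs, fewer cells of a type and less RNA per cell cannot be told apart.

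Vascular marker genes moved with this comparison, in which 55.8% of the table was called on the mean, 54.7% in IT and 50.3% in SW. All 5 xylem markers fell, and their summed level was 0.871 to 2.90 CPM in HLC and 3.35 to 9.60 CPM in LLW. Of 4 phloem markers 3 fell on the mean of both labels, but the labels went opposite ways in the summed level. In IT all 4 fell, with sums of 39.8 to 55.3 CPM in HLC and 104 to 169 CPM in LLW, whereas in SW 1 rose and 1 fell, with sums of 101 to 136 CPM in HLC and 81.9 to 94.8 CPM in LLW. The 5 mesophyll markers, of which 1 rose and 1 fell on the mean, summed to 5534 to 14721 CPM over all libraries, which fits the leaf label. In IT 3 of them fell and 0 rose, with sums of 5534 to 11412 CPM in HLC and 12658 to 14721 CPM in LLW. In SW 1 rose and 0 fell. Of 4 tested epidermis markers 2 rose and 1 fell on the mean, 1 and 2 in IT and 3 and 0 in SW. Of 5 guard cell markers 1 rose and 2 fell on the mean, 1 and 3 in IT and 1 and 1 in SW. Of 5 shoot meristem and flower markers 4, among them LFY and AP1, never exceeded 3 counts. The part of cell composition in the gibberellin genes' differences was not tested.

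**Figure D2:**
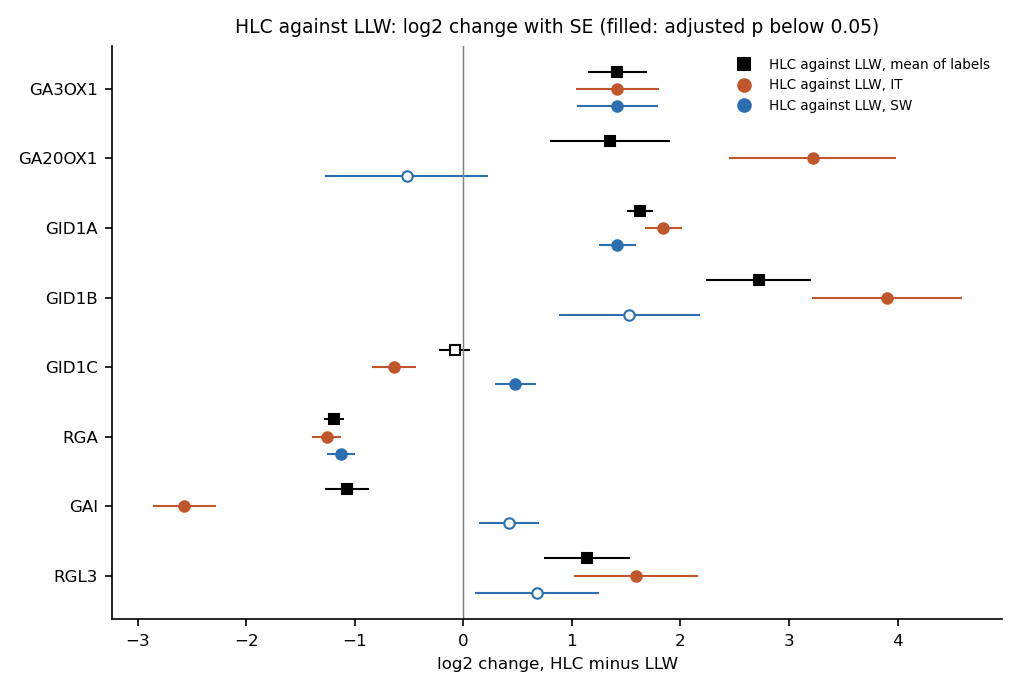
Log2 change of each tested gene, HLC minus LLW, with its standard error, as the mean of both labels (squares) and within IT and SW (circles); filled symbols passed an adjusted p of 0.05. GID1A, GA3OX1 and RGA had changes of the same sign and all called in both labels, whereas GAI, GID1C and GA20OX1 differed between the labels.

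Among the synthesis genes, GA3OX1, which encodes the enzyme that makes bioactive gibberellin, was the more abundant. In LLW it stood at 8.27, 7.60 and 5.20 CPM in the libraries labelled IT and at 9.24, 6.54 and 7.43 CPM in those labelled SW. In HLC it stood at 32.3, 7.57 and 16.7 CPM in IT and at 15.4, 28.6 and 18.1 CPM in SW. All SW_HLC libraries lay above every LLW library, while IT_HLC replicate 2 lay among them. The change was 1.42 ± 0.27 (log2 ± SE, adjusted p = 0.000145) as the mean, and it was 1.42 in IT (adjusted p = 0.00365) and 1.42 in SW (adjusted p = 0.00378). Without IT_HLC replicate 1 the IT change was 0.77 (adjusted p = 0.0561).

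GA3OX1 did not follow light or cold alone. In LLC it was 13.1, 14.1 and 11.8 CPM in IT but 4.15, 4.03 and 2.84 CPM in SW, so the labels did not overlap in that regime. In HLW it was 7.22, 4.26 and 4.54 CPM in IT and 5.86, 8.54 and 11.1 CPM in SW, and these ranges overlapped. In SW, cooling in low light lowered it by a log2 change of -1.07 (adjusted p = 0.0389), and raising the light in the cool raised it by 2.49 (adjusted p = 3.72e-05). The fall in the cool was lost when any of 5 of the 6 libraries concerned was left out, with log2 changes of -1.16 to -0.92.

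GA20OX1 encodes the oxidase of the preceding step and was close to the detection limit in several groups. In the warm regimes it stood at 0.397, 0.0826 and 0.144 CPM in IT_LLW and at 0.106, 0.266 and 0.231 CPM in IT_HLW. In the cool regimes it stood at 1.70, 2.09 and 1.48 CPM in IT_LLC and at 3.83, 0.522 and 1.94 CPM in IT_HLC, above every warm IT library. It rose with cooling in IT by 2.98 ± 0.79 in low light (adjusted p = 0.0048) and by 3.25 ± 0.79 in high light (adjusted p = 0.00233). In the 12 SW libraries its group means lay between 0.421 and 0.743 CPM, and none of the SW steps of light or temperature passed the test. HLC against LLW gave 3.22 ± 0.77 in IT (adjusted p = 0.00151) and -0.52 ± 0.75 in SW (adjusted p = 0.592), and the difference between those changes passed the test at -3.73 ± 1.08 (SW minus IT, adjusted p = 0.0107). The call on the mean of both labels, 1.35 ± 0.55 (adjusted p = 0.0427), was kept in 16 of 24 refits that left out 1 library. It was lost without IT_HLC replicate 1 (0.95, adjusted p = 0.137) or IT_HLC replicate 3 (1.38, adjusted p = 0.0516). It was also lost without IT_LLW replicate 2 or 3, SW_HLC replicate 1 or 2 or SW_LLW replicate 1 or 3, at 1.03 to 1.41. Subtracting 1 from every count (1.58, adjusted p = 0.06) or fitting only the LLW and HLC libraries (1.35, adjusted p = 0.0707) lost it too. Within sets the change was 1.77 in set A (adjusted p = 0.0345) and 0.93 in set B (adjusted p = 0.417).

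The receptor gene GID1A rose with both light and cold. The 250 bases before its annotated start are shown as an example. GID1A was called in both labels and in both transcript sets, as RGA was in the other direction. For neither gene did the HLC and LLW libraries overlap. The sequence is from RefSeq, assembly TAIR10.1, chr3:1430113-1430362, plus strand, matched by locus identifier, 5′ to 3′ and in lower case throughout because no searched motif matched.
GID1A: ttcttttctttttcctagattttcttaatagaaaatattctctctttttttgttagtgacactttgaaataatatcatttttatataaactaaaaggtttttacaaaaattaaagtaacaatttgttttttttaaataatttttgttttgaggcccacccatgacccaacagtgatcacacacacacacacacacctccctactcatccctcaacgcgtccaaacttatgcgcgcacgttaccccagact
In LLW, GID1A stood at 4.30, 2.97 and 3.83 CPM in IT and at 3.99, 4.26 and 3.11 CPM in SW. In LLC it stood at 6.31, 6.26 and 6.34 CPM in IT and at 7.42, 7.22 and 5.87 CPM in SW. All 6 LLW libraries lay below the other 18, whose lowest value was 5.87 CPM. In HLW it stood at 9.77, 6.06 and 7.62 CPM in IT and at 7.22, 8.69 and 8.0 CPM in SW. In HLC it stood at 14.4, 14.0 and 11.4 CPM in IT and at 9.85, 11 and 9.61 CPM in SW. The HLC libraries were the highest, except that IT_HLW replicate 1 lay above SW_HLC replicate 3.

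HLC against LLW raised GID1A by 1.63 ± 0.12 on the log2 scale (adjusted p = 9.08e-10), with 1.84 ± 0.17 in IT (adjusted p = 3.69e-08) and 1.42 ± 0.17 in SW (adjusted p = 1.06e-06). The difference between those labels was -0.41 ± 0.24 (adjusted p = 0.183). When either pair of groups sharing a transcript set was compared, the change was 1.81 in set A (IT_HLC against SW_LLW) and 1.45 in set B (SW_HLC against IT_LLW). Over the 24 refits without 1 library, the mean change stayed between 1.57 and 1.69 and was called each time. Of the 8 steps that changed light or temperature within a label, 7 raised GID1A, by 0.57 to 1.08, and the eighth, cooling in high light in SW, gave 0.35 ± 0.16 (adjusted p = 0.0926).

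GID1B, a paralogous receptor gene, was scarce in the warm regimes and varied most between libraries. In the 12 warm libraries it lay between 0.165 and 0.949 CPM, with a median of 0.551. In HLC it stood at 3.08, 14.7 and 1.66 CPM in IT and at 2.09, 2.21 and 2.05 CPM in SW, and all 6 values lay above the LLW libraries. In LLC it stood at 0.404, 0.487 and 0.577 CPM in IT and at 2.26, 1.38 and 4.03 CPM in SW. The cool low-light value was thus high under the SW label and within the warm range under the IT label, and the difference was 2.35 ± 0.71 (adjusted p = 0.0117). Without SW_LLC replicate 3 it was 1.86 (adjusted p = 0.0707).

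HLC against LLW raised GID1B by 2.72 ± 0.48 as the mean (adjusted p = 6.76e-05), and by 1.99 without IT_HLC replicate 2 (adjusted p = 3.80e-05). In IT the change was 3.90 ± 0.69 (adjusted p = 8.70e-05), and 2.45 without that library (adjusted p = 0.000463). In SW it was 1.53 ± 0.65 (adjusted p = 0.0573), and 1.55 by DESeq2 (adjusted p = 0.0416), and the 3 libraries of each group did not overlap. The SW change was called without IT_HLC replicate 1 (1.54, adjusted p = 0.0452), replicate 2 (1.53, adjusted p = 0.00523) or replicate 3 (1.54, adjusted p = 0.0235). No other refit without 1 library called it. Within transcript sets the change was 3.17 in set A (adjusted p = 0.000481) and 2.26 in set B (adjusted p = 0.0144).

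GID1C had the highest receptor level per length on the mean over all libraries and stood between 4.46 and 14.1 CPM in all 24. In SW_HLW GID1C was only just above GID1A, at 4.19 and 4.16 CPM per kb. The order differed in IT_HLC, where the GID1C mean of 3.09 CPM per kb lay below GID1A at 6.94 and GID1B at 3.18. In IT_HLC GID1C was 4.46, 5.27 and 7.34 CPM, the lowest group mean, and in SW_HLC it was 13.0, 10.9 and 10.4 CPM, the highest. In LLW it was 8.53, 8.92 and 9.02 CPM in IT and 8.80, 8.51 and 7.31 CPM in SW. HLC against LLW therefore went opposite ways, with -0.64 ± 0.20 in IT (adjusted p = 0.00984) and 0.48 ± 0.19 in SW (adjusted p = 0.0455), and the difference was 1.12 ± 0.28 (adjusted p = 0.00352). The SW rise was called in 15 of 24 refits without 1 library and lost, at 0.38 to 0.53, without any of the 6 LLW libraries, SW_HLC replicate 1 or 2 or IT_LLC replicate 3, and the IT fall was -0.49 without IT_HLC replicate 1 (adjusted p = 0.0587). The mean over labels was -0.08 ± 0.14 (adjusted p = 0.631). GID1C stood at 12.2, 10.4 and 11.2 CPM in IT_LLC and at 9.54, 5.57 and 9.17 CPM in SW_LLC. In HLW it stood at 14.1, 10.4 and 9.16 CPM in IT and at 8.36, 7.26 and 7.58 CPM in SW. High light in the cool gave -0.99 ± 0.20 in IT (adjusted p = 0.000605), within set A, and 0.50 ± 0.19 in SW (adjusted p = 0.0345). That SW call was lost without SW_HLC replicate 1, SW_HLW replicate 3 or SW_LLC replicate 2. Cooling in high light gave -0.98 ± 0.20 in IT (adjusted p = 0.000498).

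RGA, the most abundant DELLA transcript, was high in low light and warmth and lower in every other regime. In LLW, RGA stood at 87.9, 77.6 and 96.2 CPM in IT and at 74.6, 85.5 and 81.2 CPM in SW. In LLC it stood at 54.0, 53.3 and 54.5 CPM in IT and at 44.3, 48.8 and 37.0 CPM in SW. All 6 LLW libraries lay above the other 18, whose highest value was 54.5 CPM. In HLW it stood at 42.6, 44.4 and 54.3 CPM in IT and at 44.7, 47.5 and 42.6 CPM in SW. In HLC it stood at 33.6, 40.4 and 35.3 CPM in IT and at 37.1, 41.7 and 31.4 CPM in SW. The group means were highest in LLW and lowest in HLC, and only the step from the LLW groups to the rest separated neighbouring groups without overlap.

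HLC against LLW lowered RGA by a log2 change of -1.19 ± 0.09 (adjusted p = 2.46e-09), with -1.26 ± 0.13 in IT (adjusted p = 2.04e-07) and -1.13 ± 0.13 in SW (adjusted p = 9.84e-07). The difference between labels was 0.13 ± 0.19 (adjusted p = 0.626), and the changes within transcript sets were -1.14 in set A and -1.25 in set B. Leaving out single libraries kept the mean change between -1.24 and -1.14. RGA fell in 6 of the 8 single steps, by -0.89 to -0.37 on the log2 scale. The other steps were high light in the cool, SW, at -0.24 (adjusted p = 0.14), and cooling in high light, SW, at -0.29 (adjusted p = 0.089). The smallest called fall, cooling in high light under the IT label, was lost without IT_HLC replicate 1 (-0.31, adjusted p = 0.104), without IT_HLC replicate 3 (-0.34, adjusted p = 0.0747) and without IT_HLW replicate 3 (-0.25, adjusted p = 0.173).

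The steps differed in how many of the 8 genes they moved. High light in the warm moved GID1A, RGA and GAI under both labels, 3 genes in IT (22.0% of the table called) and 3 in SW (42.8%). High light in the cool moved 6 in IT (40.1%) and 5 in SW (52.5%). Cooling in low light moved 4 in IT (40.4%) and 5 in SW (40.2%). Cooling in high light moved all 8 in IT (44.8%) and 3 in SW (40.7%). Without 1 library these last counts ranged from 6 to 8 in IT and from 1 to 4 in SW. The RGL3 call in the IT step was lost without IT_HLC replicate 2 (0.63, adjusted p = 0.404) and without IT_HLW replicate 1 (1.32, adjusted p = 0.0956) or replicate 3 (adjusted p = 0.0901). In SW the GID1C call was lost without SW_HLC replicate 1 or SW_HLW replicate 2 or 3 (0.46 to 0.52), the GA3OX1 call without SW_HLC replicate 2 or SW_HLW replicate 1 (0.99 and 1.08) and the GID1B call without SW_HLW replicate 3 (1.90). The RGL3 call for high light in the cool in IT was lost without any of 5 libraries, and was 0.51 without IT_HLC replicate 2 (adjusted p = 0.516). Each of these steps sets the lettered against the numbered series, and those of IT in high against low light and of SW in cool against warm stay within a transcript set.

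**Figure D3:**
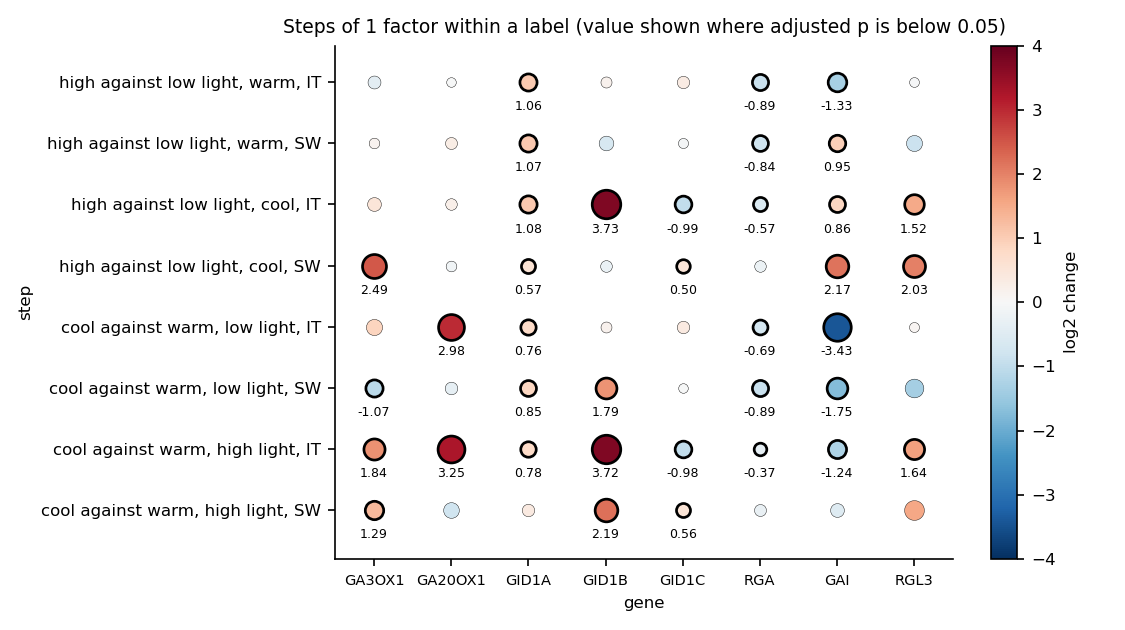
Log2 change of each tested gene (columns) in 8 steps that changed light or temperature within a label (rows); colour and dot area give the change, and thick outlines with a printed value mark an adjusted p below 0.05. GID1A was called higher in 7 steps and RGA lower in 6, whereas GAI was called higher in 3 and lower in 4.

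GAI, the closest relative of RGA, had the widest range of the DELLA genes, with group means from 4.27 to 51.5 CPM. Its upstream 250 bases, chr1:5148732-5148981 on the plus strand of the same assembly, are shown because they hold the only match found among the 10 promoters. Capitals mark the evening element, AAAATATCT, a motif known from clock-controlled genes, which starts at position -136 counted from the annotated start.
GAI: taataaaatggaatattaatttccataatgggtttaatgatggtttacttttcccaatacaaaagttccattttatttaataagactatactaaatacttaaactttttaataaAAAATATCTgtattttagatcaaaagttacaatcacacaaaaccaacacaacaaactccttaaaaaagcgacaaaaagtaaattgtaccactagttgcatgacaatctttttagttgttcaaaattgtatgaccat
The search covered both strands for AAAATATCT, for CCGAC, the core of the cold-response element, and for CACGTG, the G-box. Over 27568 promoters of the same 250 bases, 2.36% held AAAATATCT, 12% held CCGAC and 6.46% held CACGTG. A match describes letters and not a bound site.

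In LLW, GAI stood at 52.9, 56.1 and 45.5 CPM in IT and at 12.9, 12.2 and 18.6 CPM in SW. In LLC it stood at 4.04, 5.22 and 5.03 CPM in IT and at 3.20, 5.78 and 3.83 CPM in SW. The LLC values were the lowest of all, and the labels overlapped there but not in LLW. In HLW it stood at 9.88, 25.3 and 25.9 CPM in IT and at 25.7, 32.8 and 26.1 CPM in SW. In HLC it stood at 6.06, 10.1 and 9.86 CPM in IT and at 22.4, 19.1 and 17.0 CPM in SW. The 4 groups of set B had the 4 highest means and those of set A the 4 lowest, although single libraries overlapped, with 9.88 to 56.1 CPM in set B and 3.20 to 18.6 CPM in set A.

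Cooling lowered GAI in low light, by -3.43 ± 0.31 on the log2 scale in IT (adjusted p = 7.94e-08) and by -1.75 ± 0.30 in SW (adjusted p = 0.000146). The SW step stayed within set A. In high light the cooling step gave -1.24 ± 0.28 in IT (adjusted p = 0.00155) and -0.53 ± 0.27 in SW (adjusted p = 0.132), of which the SW step stayed within set B. High light in the warm lowered it in IT by -1.33 ± 0.28 (adjusted p = 0.00191), within set B, and raised it in SW by 0.95 ± 0.28 (adjusted p = 0.00937), across sets. High light in the cool raised it by 2.17 ± 0.30 in SW (adjusted p = 6.93e-06) and by 0.86 ± 0.30 in IT (adjusted p = 0.0287), the latter lost without any of 5 libraries of those 2 groups.

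For HLC against LLW, GAI changed by -2.57 ± 0.29 in IT (adjusted p = 4.53e-07) and by 0.42 ± 0.28 in SW (adjusted p = 0.218). The difference between those changes passed the test at 2.99 ± 0.40 (adjusted p = 7.76e-06) and coincides with the transcript sets, so label and set cannot be told apart in it. Within sets, GAI fell by -0.75 ± 0.28 in set A (adjusted p = 0.041) and by -1.40 ± 0.28 in set B (adjusted p = 0.00034). HLW against LLC, averaged over labels, raised GAI by 2.40 ± 0.21 (adjusted p = 3.44e-08), and it was the 1 gene of the 8 called there, where 39.4% of all tested genes were called. The HLW libraries, at 9.88 CPM or more, all lay above the LLC libraries, at 5.78 CPM or less.

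RGL3, a DELLA gene tied to defence responses, was rare, with 0.132 to 3.57 CPM. In HLC it stood at 0.266, 3.57 and 1.66 CPM in IT and at 1.16, 0.859 and 1.39 CPM in SW, against 0.529 to 0.823 CPM in LLW. All SW_HLC libraries lay above the LLW range, while IT_HLC held both the lowest and the highest HLC value. The mean change was 1.14 ± 0.40 (adjusted p = 0.0219), 0.63 without IT_HLC replicate 2 (adjusted p = 0.147) and 1.14 with only the LLW and HLC libraries in the fit (adjusted p = 0.0564). RGL3 stood at 0.809, 0.626 and 0.494 CPM in IT_LLC and at 0.364, 0.318 and 0.132 CPM in SW_LLC. In HLW it stood at 0.212, 0.999 and 0.462 CPM in IT and at 0.429, 0.378 and 0.333 CPM in SW. High light in the cool raised RGL3 in SW, across sets, by 2.03 ± 0.65 (adjusted p = 0.0128). That call was lost without SW_LLC replicate 3 (1.72, adjusted p = 0.0584), and SW_LLC libraries held 2 to 6 counts.

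Counted by label, all 8 tested genes were called in HLC against LLW in IT, where 54.7% of the table was called, and 4 in SW, where 50.3% was. The 4 were GA3OX1, GID1A, GID1C and RGA. Without 1 library the IT count ranged from 6 to 8 and the SW count from 3 to 5. The IT_HLC libraries differed more from one another than those of any other group. Between the 2 most alike libraries of a group, chi-square per degree of freedom was 98.8 in IT_HLC and 8.70 to 20.8 elsewhere. The p-values nevertheless use the scatter shared by all 8 groups. The IT change of RGL3, 1.59 (adjusted p = 0.0238), was 0.59 without IT_HLC replicate 2 (adjusted p = 0.405), and its call was also lost without any IT_LLW library (1.49 to 1.64) and with only the LLW and HLC libraries in the fit (1.59, adjusted p = 0.06). The difference between labels was called for 3 genes, GA20OX1, GID1C and GAI, against 37.1% of the table. For GID1B it was -2.37 ± 0.98 (adjusted p = 0.0629), and it was called by DESeq2 (-2.33, adjusted p = 0.0447), without IT_HLC replicate 1 (-2.71, adjusted p = 0.0327) and without IT_HLC replicate 3 (-2.80, adjusted p = 0.0117). Within set A all 8 were called (41.3% of the table), and within set B 5 were (46.3%), namely GA3OX1, GID1A, GID1B, RGA and GAI. These 5 changed in the same direction in each set, with GA3OX1 at 1.28 in set A (adjusted p = 0.00965) and 1.56 in set B (adjusted p = 0.00228). In set A the adjusted p was closest to 0.05 for RGL3 (0.0499), GAI (0.041), GID1C (0.0347) and GA20OX1 (0.0345). The within-set values were not refitted without single libraries, and IT_HLC replicate 3, counted in set A, carried transcripts of both sets.

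Averaged over temperatures and labels, high light raised GID1A by 0.94 ± 0.08, GA3OX1 by 0.68 ± 0.19 and GAI by 0.67 ± 0.14 and lowered RGA by -0.63 ± 0.07 on the log2 scale, 4 of 8 genes against 48.3% of the table. Averaged likewise, cooling raised GA20OX1 by 1.26 ± 0.39, GA3OX1 by 0.74 ± 0.19, GID1A by 0.69 ± 0.08 and GID1B by 1.97 ± 0.38, and lowered GAI by -1.74 ± 0.15 and RGA by -0.56 ± 0.07, 6 of 8 against 56.4%. The GA20OX1 call was lost without SW_LLC replicate 2 (0.98, adjusted p = 0.0515). These averages are not balanced over the transcript sets. Within the lettered series, where high light and cold go together, GID1A changed by 1.63 and RGA by -1.19. Within the numbered series, where high light goes with warmth, GID1A changed by 0.26 (adjusted p = 0.0893) and RGA by -0.07 (adjusted p = 0.577), HLW minus LLC. The light value of GAI was of the other sign in the lettered series, at -1.07 (adjusted p = 0.000113), and that of GA3OX1 was -0.05 in the numbered series (adjusted p = 0.907). Neither series holds light or temperature alone.

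**Figure D4:**
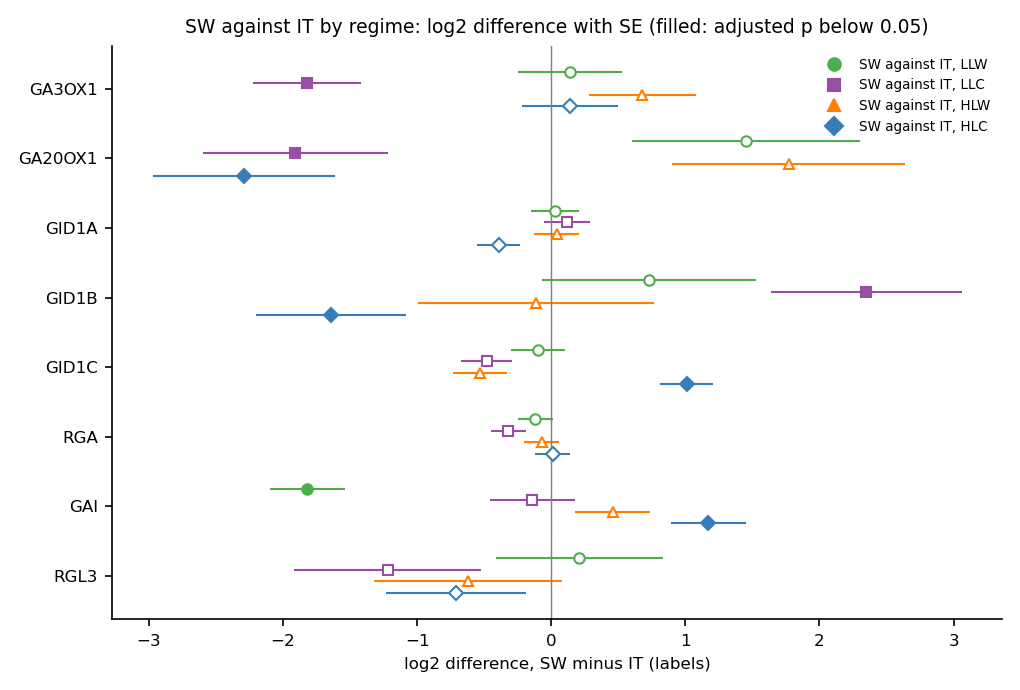
Log2 difference of each tested gene between the labels, SW minus IT, with its standard error, in each regime; filled symbols passed an adjusted p of 0.05. GAI was lower in SW in LLW and higher in SW in HLC, and RGA and GID1A lay within 0.39 of 0 in every regime.

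Between the labels, averaged over the 4 regimes, none of the 8 genes was called, against 24.2% of the table. None had an unadjusted p below 0.05, and DESeq2 also called 0. Within regimes the labels did differ. In LLW 1 gene was called (25.5% of the table), GAI at -1.82 ± 0.28 (SW minus IT, adjusted p = 6.75e-05). In LLC 3 were called (42.8%): GA3OX1 at -1.82 ± 0.40 (adjusted p = 0.00119), GA20OX1 at -1.91 ± 0.69 (adjusted p = 0.0304) and GID1B as given above. The GA20OX1 call was lost without IT_LLC replicate 1 or 2 or SW_LLC replicate 1 or 3, at -1.94 to -1.42. Both groups of that regime were of set A. In HLW, where both groups were of set B, 0 were called by edgeR and 0 by DESeq2, against 24.4% of the table, and only GID1C, at -0.53 ± 0.20, had an unadjusted p below 0.05.

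In HLC 4 genes were called between the labels, against 24.4% of the table. GAI was higher in SW by 1.17 ± 0.28 (adjusted p = 0.00547) and GID1C by 1.01 ± 0.20 (adjusted p = 0.000922), with no overlap of the libraries. GA20OX1 was lower by -2.29 ± 0.68 (adjusted p = 0.0183) and GID1B by -1.64 ± 0.56 (adjusted p = 0.038), and these libraries did overlap. GA20OX1 gave -1.47 without IT_HLC replicate 1 (adjusted p = 0.137) and lost its call without SW_HLC replicate 1 or 3 too (-2.26 and -1.86). GID1B gave -0.18 without IT_HLC replicate 2 (adjusted p = 0.832) and lost its call without any SW_HLC library (-1.66 to -1.61).

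Of 43 further gibberellin genes 20 passed the filter, and in HLC against LLW, averaged over labels, 4 rose and 7 fell, 11 of 20 beside 55.8% of the table called, with a median log2 change of -0.26. The share called was thus close to that of the table. Without GA20OX3 6 fell and the median was -0.22. It is a 20-oxidase gene that was at the lowest value in all HLC libraries and averaged 0.165 CPM in LLW, below the detection limit, so that no fold is given. In early synthesis KO, which encodes ent-kaurene oxidase, fell on the mean of labels by -0.80 ± 0.16 (adjusted p = 0.000209). That mean joins -0.11 in IT (adjusted p = 0.684) and -1.50 in SW (adjusted p = 1.81e-05), and the difference was called at -1.38 (adjusted p = 0.00181). KS, which encodes the synthase before it, rose by 0.41 ± 0.16 (adjusted p = 0.0311). KAO1, which encodes the next oxidase, gave -0.22 ± 0.12 (adjusted p = 0.132). The inactivation gene GA2OX2, which passed the filter alone of 10 listed, gave -0.91 ± 0.41 (adjusted p = 0.0673).

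Among the signalling genes, 2 of 7 rose and 3 fell, where 28.5% of the table rose and 27.3% fell. SPY, which encodes an O-fucosyltransferase that modifies DELLA proteins, fell from 26.9 to 17.7 CPM (-0.61 ± 0.07, adjusted p = 3.12e-07). IDD2, which encodes a DELLA-binding zinc finger protein, rose from 11.3 to 33.0 CPM (1.53 ± 0.17, adjusted p = 3.59e-07), while its relative IDD1 fell from 25.5 to 14.9 CPM (-0.78 ± 0.10, adjusted p = 2.50e-06). The DELLA gene RGL1, named after its values were seen, fell from 12.5 to 3.09 CPM (-1.91 ± 0.32, adjusted p = 4.30e-05).

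The 2 listed genes known to be induced through DELLA proteins each differed between the labels. XERICO, which encodes a RING protein tied to abscisic acid, rose from 4.92 to 13.5 CPM (1.43 ± 0.16, adjusted p = 1.97e-07), by 2.27 in IT (adjusted p = 8.80e-08) and 0.58 in SW (adjusted p = 0.0303), with a called difference of -1.69 (adjusted p = 0.000277). SCL3, which encodes a GRAS protein, gave -0.31 ± 0.23 as the mean (adjusted p = 0.269), with 0.62 in IT (adjusted p = 0.115) and -1.24 in SW (adjusted p = 0.00448), and its difference was called at -1.85 (adjusted p = 0.00404). In the GASA family of small gibberellin-regulated peptides 2 of 5 tested genes fell and 0 rose on the mean of labels, beside the 27.3% and 28.5% of the table. In IT 1 rose and 1 fell (54.7% of the table called), and in SW 0 rose and 3 fell (50.3% called). GASA6 fell from 385 to 7.41 CPM (-5.66 ± 0.45, adjusted p = 3.26e-09), by -6.00 in IT and -5.32 in SW, and within each set as well, by -5.22 in set A and -6.10 in set B. GASA14 gave -2.43 ± 0.29 as the mean (adjusted p = 7.20e-07), but it stood at 10.3 CPM in LLW and 8.97 CPM in HLC under IT (-0.20, adjusted p = 0.662) and at 27.0 and 1.07 CPM under SW (-4.66, adjusted p = 9.79e-08). The difference between labels was called at -4.46 (adjusted p = 6.35e-06), and within sets the change was -1.60 in set A (adjusted p = 0.00168) and -3.27 in set B (adjusted p = 8.13e-06). AT1G22690 gave 0.54 ± 0.25 (adjusted p = 0.0751).

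**Figure D5:**
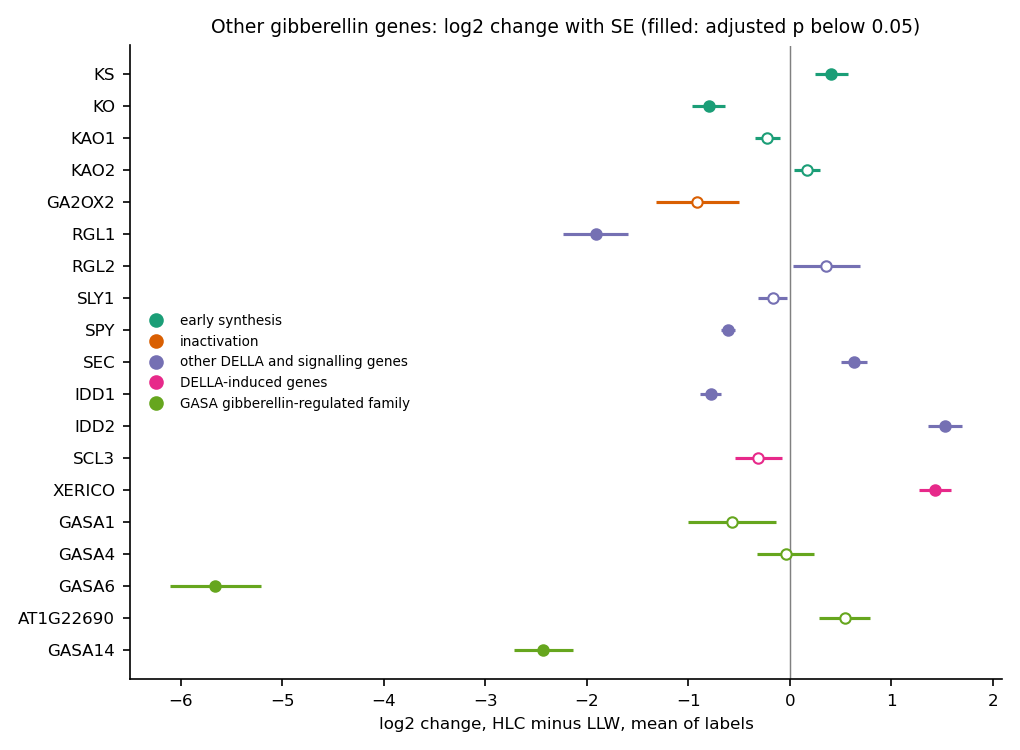
Log2 change of 19 other gibberellin genes, HLC minus LLW, averaged over labels, with its standard error; colours give the gene list and filled symbols passed an adjusted p of 0.05. GASA6 fell the most of the genes plotted, and GA20OX3, below the detection limit, is left out.

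For the gene of widest range in each role, the genes with the most similar profile over the 24 libraries were looked up among 3728 well-expressed genes. For GAI they were FADA, IPK1 and LQY1, each with a Pearson r of 0.88 of log2 CPM. For GID1B they were ERF1-1 (0.91), UBP13 (0.89) and MVP1 (0.89), and without IT_HLC replicate 2 the values were 0.87, 0.83 and 0.88. For GA20OX1 they were HCF109 (0.75), PEX11D (0.73) and TET3 (0.71). These values describe shared libraries, groups and transcript sets and carry no test.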

How the data were processed

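Leaf RNA was depleted of ribosomal RNA and made into TruSeq libraries, per the labels' protocols. The authors deposited whole-number counts per gene for 24 libraries. Per the submitters' processing notes, which list DESeq2, StringTie and HISAT, the build was TAIR10, with versions, roles and strand use not given in the sources used here. The lowest deposited count is 1, so an offset or a replaced 0 is possible. With 1 reference for both ecotypes, sequence differences from it can lower a count. Within the DELLA, receptor and GA 20-oxidase families, no exon stretch of 50 bases was shared, and no annotated gene overlapped the 10 genes (TAIR10.1).

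Counts were tested with edgeR 4.0.16 (R 4.3.3; glmQLFit, robust, glmQLFTest, TMM) on 8 groups and all 24 libraries; filterByExpr (minimum count 10, total 15) kept 17709 genes. Benjamini-Hochberg adjustment ran over the whole table per comparison, and adjusted p below 0.05 made a call. Levels are CPM on TMM-scaled totals, and SE is that of the log2 change. The scripts were tested on simulated data. Symbols came from NCBI's TAIR10.1 gene table (28932 identifiers matched, 4678 did not). Alternatives were size-factor scaling, no filter, DESeq2 1.42.0, subtraction of 1, nuclear genes only, a replicate block, LLW and HLC libraries only and each library left out; within-set and within-series values were added after the data were seen.

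The members and gene lists were chosen with earlier results of these data known. All 10 members were named; of each other list, up to 3 genes of smallest adjusted p in HLC against LLW; and per role the member of widest range with its 3 most similar genes. Detection limits of 3 counts cover counting error only.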

Additional observations from a re-analysis of the deposited data

Results flagged for a closer look

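Here 3 tested differences between labels stood out, each the change from LLW to HLC under SW minus that under IT. GAI differed by 2.99, as a fall of -2.57 in IT against 0.42 in SW. GA20OX1 differed by -3.73, with 3.22 in IT against -0.52 in SW, and its IT_LLW libraries were near the detection limit. GID1C differed by 1.12, with -0.64 in IT and 0.48 in SW. In each refit without 1 library these differences stayed called, at 2.78 to 3.20 for GAI, -4.59 to -2.91 for GA20OX1 and 0.97 to 1.33 for GID1C. The contrast coincides with the transcript sets, so label and set cannot be told apart in it.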

How the results depend on the processing

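Counts of calls, over the table and among the 8 tested genes, were recomputed in 1164 refits of 38 counts, and 1146 stayed within 1.5 times the reported count. Of the 77 called differences of single genes, 1775 of 1848 refits without 1 library kept the call and direction, 73 lost the call and 0 reversed; 476 of 489 refits under the other planned settings kept it and 13 lost it. Leaving out 1 library moved the count of called genes to between 0 and 1 for SW against IT averaged over regimes (RGL3 at -0.71, adjusted p = 0.0268, without IT_HLC replicate 1; GID1B at 0.70, adjusted p = 0.0443, without IT_HLC replicate 2), 2 and 5 in LLC, 0 and 1 in HLW and 2 and 5 in HLC, and to between 3 and 6 for cooling in low light and 1 and 4 in high light under SW. Over the table, SW against IT in HLC ranged from 2740 to 5068 genes, the lowest without IT_HLC replicate 2, against 4314 reported. By library series, the light average called 7 genes in the lettered series and 1 in the numbered, and the temperature average 1 in the numbered. Of the table, 55.8% was called in the lettered series and 39.4% in the numbered. There the light value of GAI was -1.07 (lettered) and of GA3OX1 -0.05 (numbered), and the temperature value of GID1A was -0.26 and of RGA 0.07 (numbered), all of the other sign; each series changes light and temperature together.

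The replicate numbers did not pair the libraries: deviations of same-numbered libraries correlated at -0.27 to 0.18 over 84 pairs, and 8 of 24 libraries correlated best with their own number. With the replicate block, HLC against LLW still called 7 genes as the mean, 8 in IT and 4 in SW. Over the table that fit called 9768, 9521 and 8747 genes. GID1B in SW against IT in HLC was no longer called (-1.46, adjusted p = 0.0773), nor was RGL3 for high light in the cool in IT (1.38, adjusted p = 0.066), and GID1C in SW against IT in LLC became called (-0.49, adjusted p = 0.0441); the block changed no other call among these genes. Depth limits GA20OX1, GID1B and RGL3, whose medians were 7.5, 10 and 8.5 counts, and hides GA20OX2 and GA2OX1.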

Other observations

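Averaged over the 4 regimes, 7 of the 20 other gibberellin genes that passed the filter differed between the labels, against 24.2% of the table, whereas none of the 8 described above did. RGL2, a DELLA gene known from seed germination, was higher under SW by 1.67 ± 0.23 on the log2 scale (1.26 CPM in IT and 3.92 in SW, adjusted p = 3.71e-05), the DELLA gene RGL1 by 0.74 ± 0.22 (adjusted p = 0.0191) and GASA1 by 1.19 ± 0.30 (adjusted p = 0.00809). GASA14 was lower under SW by -1.07 ± 0.21 (adjusted p = 0.00108), KAO2 by -0.47 ± 0.09 (adjusted p = 0.00133), IDD2 by -0.46 ± 0.12 (adjusted p = 0.00918) and SPY by -0.18 ± 0.05 (adjusted p = 0.0109). The labels do not separate the transcript sets, so these are differences between labels.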
